A study of Mus musculus with 15 samples.

Results

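The genes examined here are 34 genes of B cells and of the stroma that holds B cells in lymph nodes, taken by name from the expression values of mammary tissue. All 34 names were found among 52526 genes. The samples were the left 4th mammary tissue of female athymic nude mice (Crl:NU-Foxn1nu). In 7 mice, a subcutaneous osmotic pump delivered BDE-47, a brominated flame retardant, over 16 weeks in PEG300 with 1% DMSO, aimed at 0.03 mg per kg and day, and 8 vehicle mice had pumps with PEG300 and 1% DMSO alone. Administration began after 8 weeks of age, and 1 library was made per mouse. Some mice carried tumor xenografts, which the sample labels do not give for each mouse and which were not modeled here. Whether the lymph node was kept in or trimmed from these tissues is not given in the sources used here.

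B cells carry an antibody on their surface, the B cell receptor, whose heavy and light chains bind antigen while the attached chains CD79A and CD79B pass the signal into the cell. They gather in follicles of the lymph nodes, drawn by the chemokine CXCL13 through its receptor CXCR5, and B cells that mature into plasma cells secrete antibody in large amounts. Nude mice lack a functional Foxn1 gene and do not form a normal thymus, so they are short of T cells, whereas B cells arise in the bone marrow. The fat pad of this mammary gland is also the site of the inguinal lymph node. The 34 genes were arranged by role into the chains of the B cell receptor, its signalling proteins, other surface receptors, transcription regulators, proteins of antibody assembly, homing receptors and signals of lymphoid stroma. Cd79a, which encodes a chain found in all stages of the B cell line up to the plasma cell, was the gene used to tell the mice apart. Mice with Cd79a listed at 0 were not free of B cell RNA, since Igkc and Ighm were above 0 in every mouse.

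Promoters of 3 genes are shown to give the sequence around the start of the gene that told the mice apart and of genes that were above 0 in the same mice alone. They run from 250 bases before to 50 bases after the start, come from RefSeq (GRCm38.p6, the build named in the submitters' processing notes), and are written 5′ to 3′ on the strand of the gene. Cd79a lies at chr7:24897247-24897546 on the plus strand, Cd22, which encodes an inhibitory receptor, at chr7:30878979-30879278 on the minus strand, and Vpreb3, which encodes a protein related to the surrogate light chain, at chr10:75948050-75948349 on the plus strand. Capitals mark a match to a motif of a B cell factor.
Cd79a: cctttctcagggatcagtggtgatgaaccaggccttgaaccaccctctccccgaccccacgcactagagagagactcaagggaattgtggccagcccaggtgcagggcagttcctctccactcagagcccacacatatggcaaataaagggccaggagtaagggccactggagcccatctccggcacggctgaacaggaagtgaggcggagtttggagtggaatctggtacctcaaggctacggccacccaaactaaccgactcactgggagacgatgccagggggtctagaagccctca
Cd22: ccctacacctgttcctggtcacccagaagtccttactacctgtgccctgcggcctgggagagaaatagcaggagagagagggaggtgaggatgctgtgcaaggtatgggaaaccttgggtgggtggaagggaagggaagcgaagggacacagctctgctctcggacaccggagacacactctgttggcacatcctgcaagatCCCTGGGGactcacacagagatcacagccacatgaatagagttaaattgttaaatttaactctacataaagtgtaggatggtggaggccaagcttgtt
Vpreb3: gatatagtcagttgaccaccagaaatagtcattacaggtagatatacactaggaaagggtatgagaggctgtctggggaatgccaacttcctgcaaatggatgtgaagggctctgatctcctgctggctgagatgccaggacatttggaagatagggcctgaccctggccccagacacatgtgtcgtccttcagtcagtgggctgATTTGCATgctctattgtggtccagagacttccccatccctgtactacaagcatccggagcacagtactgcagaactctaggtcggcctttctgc
Among the 34 genes, 23 had a promoter in the table, and 3 short motifs were searched on both strands. The octamer ATTTGCAT, bound by Oct factors with the coactivator encoded by Pou2af1, was present in the promoters of Blnk and Vpreb3 (2 of 23), and in 1.97% of 27025 promoters. The palindrome CCCNNGGG, the core of the site of EBF1, was present in Bank1, Cd22, Spib and Madcam1 (4 of 23), and in 15.4% of all promoters. The purine-rich GAGGAAGT, a site of PU.1 and Spi-B, was present in Cd37 and Cd72 (2 of 23), and in 3.69% of all promoters. No promoter of the 23 contained more than 1 of the 3 motifs, and the Cd79a promoter contained none of the 3. A match describes the letters of these windows and does not show that a factor binds there.

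Expression was measured with QuantSeq 3′ FWD libraries, which read the 3′ end of each transcript, so the number of reads does not scale with transcript length. Values are log2(CPM), where CPM is the reads of a gene scaled to the total of its library, and genes under 1 CPM are listed at 0. The libraries held 10.06 to 19.58 M reads (median of 15.19 M with vehicle and 14.38 M with BDE-47). Many genes were listed at 0 in some mice. Of the 16314 genes above 0 in at least 1 mouse, 2579 were above 0 in all 15, and genes that every cell uses were among those listed at 0, such as Polr2a in 1 mouse, Vcp in 5 and Tbp in 12 (genes chosen after their values were seen). A value listed at 0 is therefore reported as such, and not as absence of the transcript. BDE-47 replicate 6 stood apart by skeletal muscle genes, with 67762 CPM over 5 of them against 31.8 to 129 CPM in all other mice.

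Cd79a was listed above 0 in 2 of 15 mice, vehicle replicate 6 (log2(CPM) of 5.81, 874 reads) and vehicle replicate 8 (5.35, 489 reads). It was listed at 0 in the other 6 vehicle mice and in all 7 BDE-47 mice. Of the 34 genes, 31 were above 0 in both of these mice, and 13 of them in these mice and no other, as were 100 of all 16314 genes. A total of 29 of the 34 were higher in both mice than in any of the other 13, as were 5.08% of all 16314 genes. The exceptions were Blnk, Cd72, Ccl19, Ccl21a and Madcam1. Each of the 2 mice had 32 of the 34 genes above 0, whereas the other mice had 2 to 10 (median of 4), with vehicle 3 to 10 and with BDE-47 2 to 9. The summed level was 5835 CPM in vehicle replicate 6 and 46473 CPM in vehicle replicate 8, which is 0.584% and 4.65% of their reads, and 27.0 to 632 CPM in the other mice. In whole tissue, more B cells and more B cell RNA per cell cannot be told apart. Because Cd79a chose the 2 mice, these values are a description and were not tested.

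**Figure D1:**
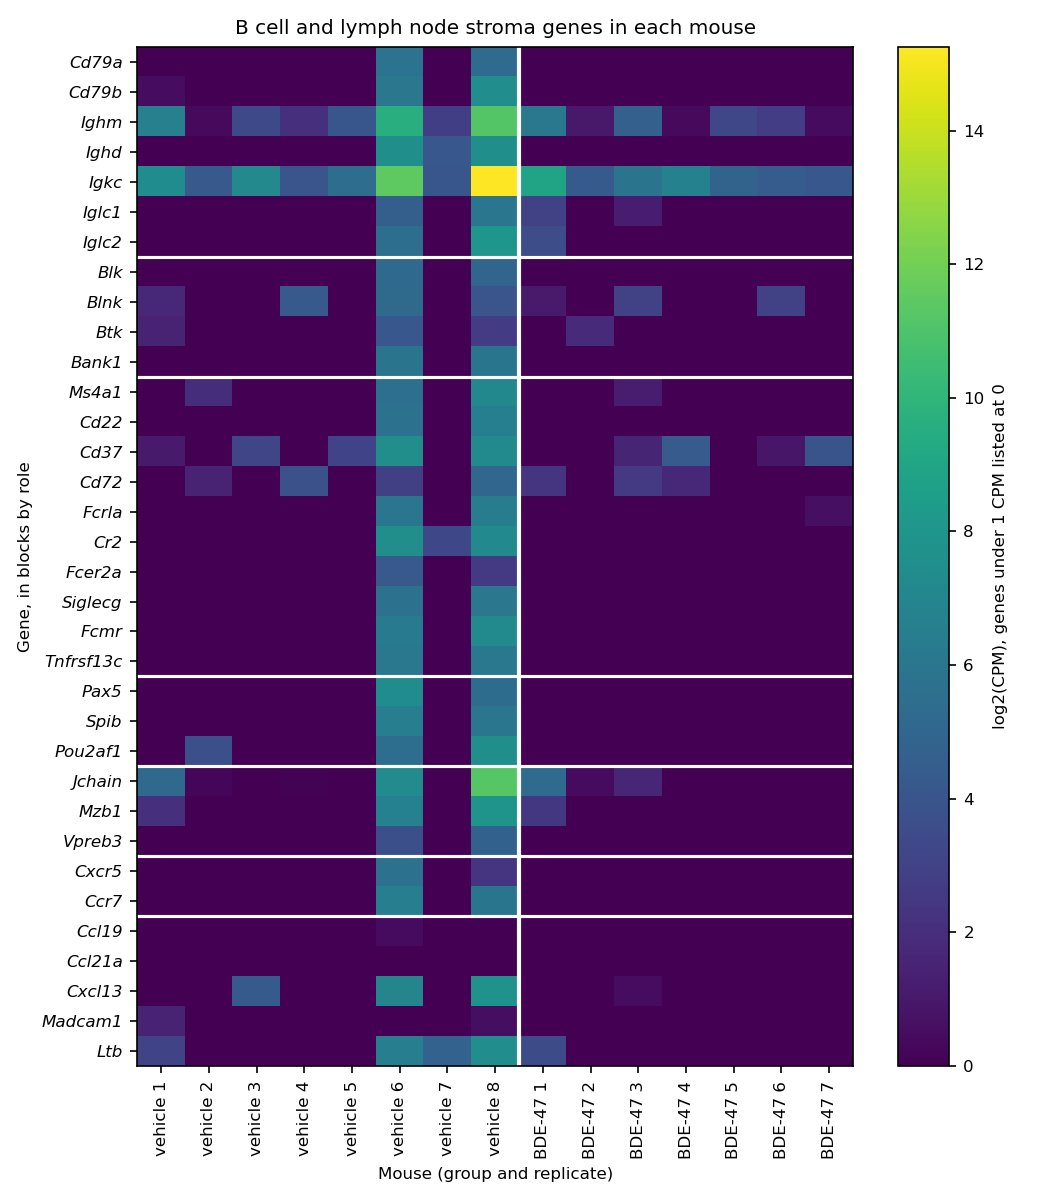
Level of each of the 34 genes (rows, in blocks by role from receptor chains at the top to stroma signals at the bottom) in each of the 15 mice (columns, vehicle left and BDE-47 right of the white line), colored by log2(CPM) with values under 1 CPM listed at 0. Vehicle 6 and vehicle 8 have 32 genes above 0 each, and Igkc in vehicle 8 is the highest value at 15.25.

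**Figure D2:**
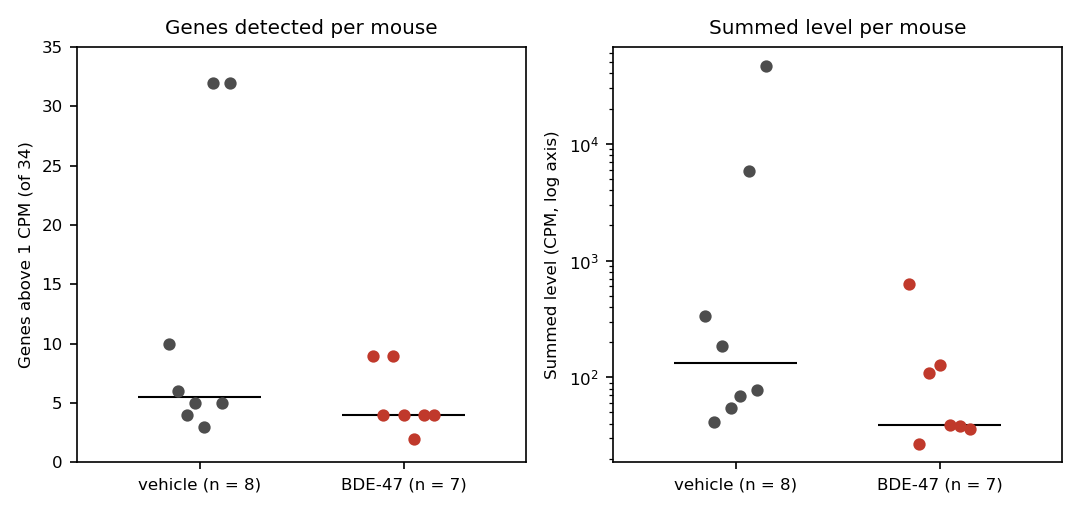
Number of the 34 genes above 1 CPM (left) and their summed level in CPM on a log axis (right) in each mouse, with 1 point per mouse and a line at the group median. The 2 vehicle mice with Cd79a stand at 32 genes and at 5835 and 46473 CPM, above the 2 to 10 genes and 27.0 to 632 CPM of all others.

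The number of genes listed above 0 did not set these 2 mice apart. Vehicle replicates 6 and 8 had 8366 and 8269 genes above 0, within the 6932 to 12689 of the other mice. Among those other mice, the 3 with the most genes of any kind above 0, BDE-47 replicate 3 (12689), vehicle replicate 1 (11490) and BDE-47 replicate 1 (10044), also had the most of the 34 genes above 0 (9, 10 and 9). For a comparison by level, 4233 genes had their highest value between 5 and 6 on the log2 scale, and such a gene was listed at 0 in a median of 5 of 15 mice. The 7 B cell and stroma genes in the same range were listed at 0 in a median of 13. These 7 include Cd79a, which chose the 2 mice, and each of them had its highest value in vehicle replicate 6 or 8. The comparison is therefore a description, and why these genes were listed at 0 in the other mice was not tested.

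The 7 chains of the B cell receptor gave most of the signal. Igkc, the constant region of the kappa light chain, was above 0 in every mouse, with 11.47 in vehicle replicate 6 (44101 reads) and 15.25 in vehicle replicate 8 (466322 reads), where it made up 3.90% of all reads. In the other 13 mice it ranged from 4.03 to 8.90 with a median of 4.88, and BDE-47 replicate 1 was the highest of them. Ighm, the constant region of the mu heavy chain, was also above 0 in every mouse, at 9.54 and 11.18 in the 2 mice and 0.36 to 6.62 in the others. Neither of these genes overlapped between the 2 mice and the rest.

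Ighd, the delta heavy chain of naive B cells, was 7.61 and 7.60 in the 2 mice, 4.12 in vehicle replicate 7 and listed at 0 in the other 12. Cd79b, the partner of Cd79a, was 6.07 and 7.49, with 0.52 in vehicle replicate 1 and 0 elsewhere. The lambda chain genes were lower than Igkc in both mice. Iglc1 was 4.62 and 5.97 and reached 2.94 in BDE-47 replicate 1 and 1.20 in BDE-47 replicate 3. Iglc2 was 5.49 and 8.01 and was otherwise above 0 in BDE-47 replicate 1 alone (3.60). Genes for lambda constant regions are close copies of each other, so their separate values are uncertain.

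All 4 signalling proteins below the receptor were above 0 in both mice. Blk, a Src family kinase of B cells, was 5.19 and 4.96 in vehicle replicates 6 and 8, and Bank1, a scaffold protein, was 5.85 and 5.94, and both were listed at 0 in all 13 other mice. Btk, the kinase that activates phospholipase C, was 4.12 and 2.65, with 1.79 in BDE-47 replicate 2 as the highest of the rest. Blnk, the adaptor between the receptor and phospholipase C, was 5.25 and 4.03 and was above 0 in 5 other mice, up to 4.24 in vehicle replicate 4, so that its values overlapped. Myeloid cells also use Btk.

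The 10 surface receptors were all above 0 in both mice, between 2.61 and 7.54. Cd22, Siglecg, Fcmr (the receptor for IgM), Tnfrsf13c (the receptor for the survival factor BAFF) and Fcer2a (CD23) were listed at 0 in every other mouse. Ms4a1, which encodes CD20, was 5.57 and 7.10, and 1.24 to 2.02 in the 2 other mice in which it was above 0. Cr2, the complement receptor of B cells and follicular dendritic cells, was 7.54 and 7.22 with 3.30 in vehicle replicate 7. Fcrla was 5.97 and 6.40 with 0.62 in BDE-47 replicate 7. Cd37 and Cd72 had the widest distribution of the group, above 0 in 7 and 5 of the other mice. Cd37, a tetraspanin found on many leukocytes, was 7.53 and 7.24 against at most 4.41, whereas Cd72 was 2.89 and 5.02 with 3.81 in vehicle replicate 4, and so overlapped.

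Transcription regulators of the B cell line were above 0 in the same mice and, for 1 of the 3 genes, in 1 further mouse. Pax5, which holds B cells to their identity, was 7.40 in vehicle replicate 6 and 5.38 in vehicle replicate 8, and Spib was 6.53 and 5.98, both with 0 in the other 13. Pou2af1, a coactivator of octamer sites, was 5.52 and 7.62 with 3.70 in vehicle replicate 2. The homing receptors Cxcr5 (5.73 and 2.37) and Ccr7 (6.51 and 5.92) were listed at 0 in all 13 others.

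The 3 antibody assembly genes were all higher in vehicle replicate 8 than in vehicle replicate 6. Jchain, which joins IgM and IgA into polymers, was 7.38 in vehicle replicate 6 (2588 reads) and 11.20 in vehicle replicate 8 (28152 reads). It was above 0 in 6 of the other mice, highest in BDE-47 replicate 1 (5.34) and vehicle replicate 1 (5.21). Mzb1, a chaperone of antibody secretion, was 6.71 and 7.92, and at most 2.48 elsewhere. Vpreb3 was 3.70 and 4.74 and 0 elsewhere.

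The stroma signals did not behave as a group. Cxcl13, the chemokine of B cell follicles, was 6.91 and 7.76 in the 2 mice, 4.31 in vehicle replicate 3, 0.52 in BDE-47 replicate 3 and 0 elsewhere. Ltb, a lymphotoxin subunit made by lymphocytes rather than by stroma, was 6.53 and 7.50, with 4.77, 3.11 and 3.56 in vehicle replicates 7 and 1 and BDE-47 replicate 1. The other 3 genes of the group, 2 chemokines of the T cell zone and an adhesion molecule, were at most 1.55 in any mouse. Ccl19 was above 0 in vehicle replicate 6 alone (0.43, 21 reads), Ccl21a was listed at 0 in all 15 mice, and Madcam1, an adhesion molecule of vessels, was 0.59 in vehicle replicate 8 and 1.55 in vehicle replicate 1. Ccl19 and Ccl21a each stand under 2 entries of the same name, of which the higher was used, and the copies Ccl21b, Ccl21c and Gm13304 were also at 0 in every mouse, while Ccl19-ps1 was above 0 in 1 mouse, at 2.68, so reads of this family cannot be assigned with certainty. Among these 5 genes, the name of stroma genes is therefore carried by Cxcl13.

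The 2 mice were next compared with each other over the 31 genes above 0 in both, as a description of 2 libraries. Of these, 18 were higher in vehicle replicate 8 and 13 in vehicle replicate 6, with a median difference of 0.44 on the log2 scale, and 14 were within 1 log2 unit. Genes higher in vehicle replicate 8 by over 2 log2 units were Jchain (14.1-fold), Igkc (13.7-fold), Iglc2 (5.71-fold), Cd72 (4.37-fold) and Pou2af1 (4.28-fold). Those higher in vehicle replicate 6 by as much were Cxcr5 (10.2-fold) and Pax5 (4.05-fold). Genes of antibody secretion were thus among those higher in vehicle replicate 8, while Cd79a was 1.38-fold and Ighd 1.01-fold higher in vehicle replicate 6. Read for read, Ighm was 13.3 times Cd79a in vehicle replicate 6 and 56.6 times in vehicle replicate 8, and the ratio of kappa to the lambda chains was 40.8 and 122.

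**Figure D3:**
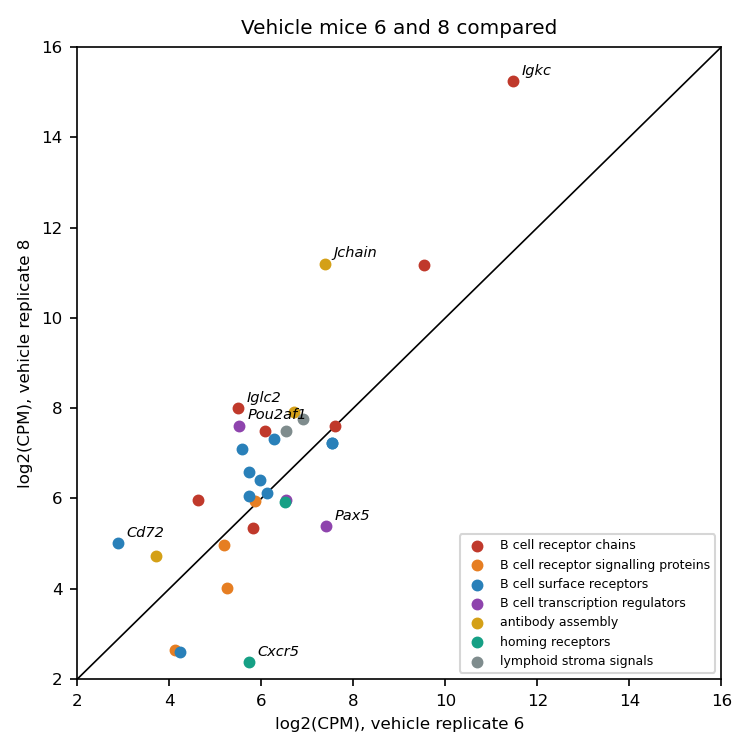
Level of the 31 genes above 0 in both mice, as log2(CPM) in vehicle replicate 6 (horizontal) and vehicle replicate 8 (vertical), with 1 point per gene colored by role and a line of equal levels. Named genes differ by over 2 log2 units, with Jchain and Igkc 14.1-fold and 13.7-fold higher in replicate 8 and Cxcr5 10.2-fold higher in replicate 6.

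Lists of plasma cell, germinal centre and T cell genes were then read in the same mice. Plasma cell genes summed to 820 CPM in vehicle replicate 6 and 13490 CPM in vehicle replicate 8, against 60.8 to 294 CPM in the others, most of it from the IgG chains Ighg2c (8.70 and 13.09) and Ighg2b (7.76 and 11.94), which are close copies. Irf4, a transcription factor of activated B cells and plasma cells, was 5.11 and 6.72 and at most 4.12 elsewhere. Sdc1, Prdm1 and Xbp1 in the 2 mice lay within the range of the other mice, and Tnfrsf17 was listed at 0 in every mouse. Of 8 germinal centre genes, 1 and 2 were above 0 in the 2 mice and 1 to 5 in the others, and Rgs13 and Nuggc were listed at 0 in all 15. Variable segments were rarely listed, with 7 above 0 in vehicle replicate 8 (1 Ighv, 5 Igkv and 1 Iglv), 3 in vehicle replicate 6 (2 Igkv and 1 Iglv), 1 Ighv in vehicle replicate 2 and 0 elsewhere.

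T cell genes were high in the same mice as the B cell genes, although the strain is athymic. Of 14 T cell genes, 14 were above 0 in vehicle replicate 6 and 12 in vehicle replicate 8, with a summed level of 1368 and 566 CPM, whereas the other mice had 0 to 6 of them and 0 to 44.2 CPM. Cd3d (5.77 and 5.00), Cd8b1 (5.96 and 5.47) and Il7r (5.81 and 6.24) were listed at 0 in the other 13, and Cd5 and Cd247 were listed at 0 in vehicle replicate 8. High endothelial venule genes, which mark the vessels through which lymphocytes enter lymph nodes, summed to 896 and 1343 CPM against 42.1 to 204 CPM in the others. Their main gene was Glycam1 (9.44 and 10.06), which was at most 1.33 elsewhere and made up most of both sums. Of the 7 genes, Glycam1, Fut7 and Gcnt1 were higher in both mice than in all others, as were 5.08% of all genes. Chst2 (3.92 and 6.45), Cd34 (4.35 and 5.36) and Ackr1 (5.26 and 0) overlapped with the other mice, and Chst4 was above 0 in vehicle replicate 6 alone. The 10 genes found of follicular dendritic and reticular stroma summed to 318 and 769 CPM against 114 to 419 CPM. Vcam1 and Bst1 were higher in both mice than in all others, and Ltbr and Sox9 were lower (5.08% and 1.89% of all genes). The 7 lymphatic endothelium genes summed to 113 and 467 CPM against 3.56 to 206 CPM, with 0 higher in both mice than in all others. The 13 macrophage and dendritic cell genes summed to 3731 and 4697 CPM against 153 to 927 CPM. Of these, 5 were higher in both mice than in all others (5.08% of all genes), namely Lyz2, C1qa and the class II genes Cd74, H2-Aa and H2-Ab1. Adgre1, Xcr1 and Flt3 were listed at 0 in both mice, and Cd68, Csf1r, Itgax, C1qb and C1qc overlapped with the other mice.

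Genes of fat and of mammary epithelium were low in the same tissues. The 8 adipocyte genes summed to 535 and 1243 CPM in the 2 mice, and to 5322 to 35270 CPM in the other 13, and 7 of the 8 were lower in both mice than in any other, as were 1.89% of all genes. Adipoq, which encodes adiponectin, was 3.88 and 4.48 against 7.15 to 10.13. The 10 genes of mammary epithelium summed to 49.0 and 134 CPM against 174 to 2730 CPM, and 5 of them were in both mice below all others. Vehicle replicates 6 and 8 thus differed from the other vehicle mice in genes of several tissues, not of B cells alone. The part of lymphocyte, stroma, fat and epithelial RNA in the results below was not tested.

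**Figure D4:**
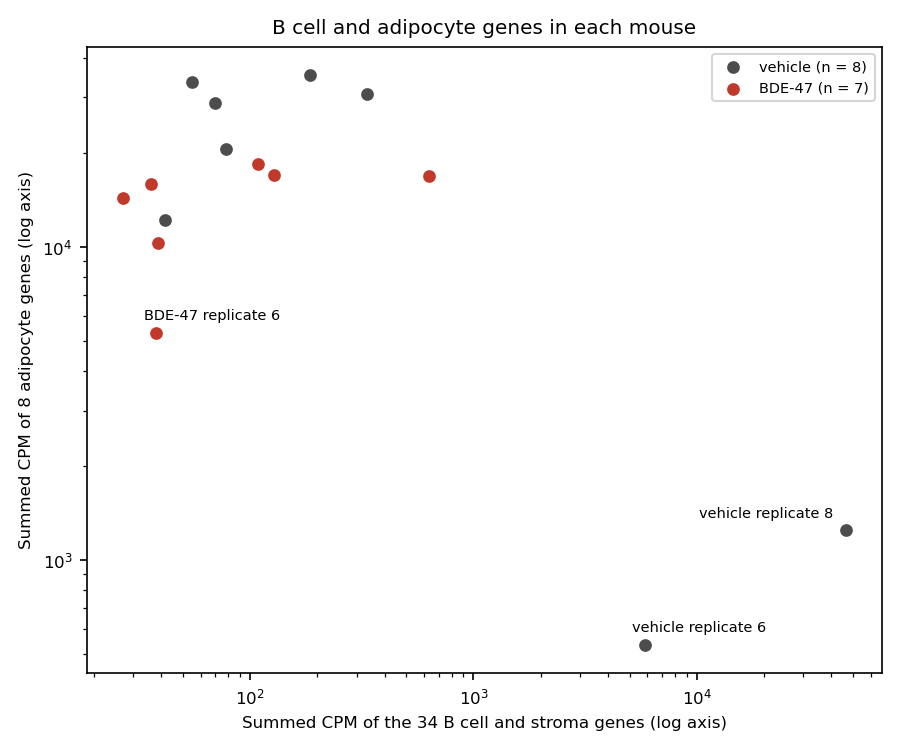
Summed level of the 34 genes (horizontal, CPM, log axis) and of 8 adipocyte genes (vertical, CPM, log axis), with 1 point per mouse colored by group. Vehicle replicates 6 and 8 lie at the lower right, with 5835 and 46473 CPM of B cell and stroma genes and 535 and 1243 CPM of adipocyte genes, and the other 13 mice have 5322 CPM of adipocyte genes or more.

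Beyond the 34 genes, 87 others were above 0 in exactly vehicle replicates 6 and 8. By mean level the first 12 were Ptprcap, Ccl22, Tnfrsf13b, Il7r, Il4i1, Il22ra2, Cd8b1, Acap1, Plxnc1, Gm8369, Cxcr6 and Fut7. Ptprcap, a partner of the phosphatase CD45, was 7.48 and 6.91, and Tnfrsf13b, which encodes the BAFF family receptor TACI, was 5.42 and 7.35. Of the 87 genes, 5 belong to the list of T cell genes. Fcrl5, an Fc receptor-like protein of B cells, was 1.29 and 3.86.

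To ask whether BDE-47 was associated with these genes, the 7 BDE-47 mice were compared with all 8 vehicle mice. The mean log2(CPM) was lower with BDE-47 for 33 of 34 genes and equal for Ccl21a, and for 26 it was lower by more than 1 log2 unit, a 2-fold change of the listed values. By the same criterion 10.5% of the 16314 genes were lower and 9.97% were higher, with 0 of the 34 genes higher. The median difference of the 34 genes was -1.50, with a range from -2.42 (Ighd) to 0 (Ccl21a), and the median over all genes was -0.015. None of the 34 genes reached p under 0.05 in a two-sided exact permutation test, in which 3.05% of all genes did. The groups overlapped for all 34 genes. Apart from Ighm and Igkc, each was listed at 0 in mice of both groups, which makes overlap certain, so this count says nothing about BDE-47.

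Single genes were read with the number of mice in which they were above 0. Ltb, above 0 in 4 mice with vehicle and 1 mouse with BDE-47, had the lowest p (difference of -2.23, exact permutation p = 0.147). Ighm was above 0 in all mice, with a mean of 5.01 ± 3.77 (SD, n = 8) with vehicle and 2.67 ± 2.20 (SD, n = 7) with BDE-47. Its difference was -2.34 (exact permutation p = 0.179). The mean of Igkc was 7.40 ± 4.04 with vehicle and 5.60 ± 1.72 with BDE-47, a difference of -1.80 (exact permutation p = 0.321). Ighd, Cr2, Pou2af1 and Cxcl13, each above 0 in 3 vehicle mice and in at most 1 BDE-47 mouse, had differences of -2.42, -2.26, -2.10 and -2.30 (exact permutation p = 0.200 for each). Cd79a had a difference of -1.40 (exact permutation p = 0.467). That value is what the test gives whenever 2 vehicle mice hold all the signal, as for 14 of the 34 genes, and such a gene cannot reach p under 0.05 in this design. A gene above 0 in 3 mice, such as Ighd, Cr2 or Pou2af1, cannot reach it either.

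Genes above 0 in at least 7 mice were also tested with limma, with Benjamini-Hochberg adjustment over all 9511 genes. Of the 34 genes, Ighm, Igkc, Blnk, Cd37, Cd72 and Jchain entered this test, and 0 of them passed, nor did any other gene (0.0% of all genes, lowest adjusted p = 0.982). At an unadjusted p under 0.05 limma counted 443 of the 9511 genes, none of them among the 34. The estimate for Ighm was -2.34 with a standard error of 1.18.

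The comparison was then repeated without the 2 mice in which Cd79a was above 0, leaving 7 BDE-47 and 6 vehicle mice. Of the 34 genes, 15 were listed at 0 in every mouse that remained, and of the other 19 the mean was lower with BDE-47 for 9 and higher for 10. None was past 2-fold in either direction, whereas 10.5% of all 15804 genes were lower and 10.4% were higher by that much. The count of genes past 2-fold thus went from 26 of 34 to 0 of 34 when 2 of 15 mice were left out. None of the 19 genes reached p under 0.05 in the exact permutation test, against 2.74% of all genes. A gene above 0 in only 1 to 3 of these 13 mice, such as Cd79b, Ighd, Cr2 or Ltb, cannot reach it. For such genes the outcome was set by detection, and the comparison with all genes says nothing about them. The lowest p was again that of Ltb, with a difference of -0.80 (exact permutation p = 0.437).

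Without these mice, Ighm differed by -0.56 (exact permutation p = 0.646) and Cr2 by -0.55, the latter from vehicle replicate 7 alone. Igkc was 0.19 higher with BDE-47 (exact permutation p = 0.843), Jchain 0.14 higher (exact permutation p = 0.812) and Iglc1 0.59 higher, with BDE-47 replicate 1 as the highest mouse for each. In limma, 0 of 8838 genes passed (0.0%, lowest adjusted p = 0.861), and 399 had an unadjusted p under 0.05. The number of the 34 genes above 0 per mouse had a mean of 12.1 ± 12.4 (SD, n = 8) with vehicle and 5.14 ± 2.73 (SD, n = 7) with BDE-47 when all mice were counted, and 5.50 ± 2.43 (SD, n = 6) with vehicle once the 2 mice were left out.

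**Figure D5:**
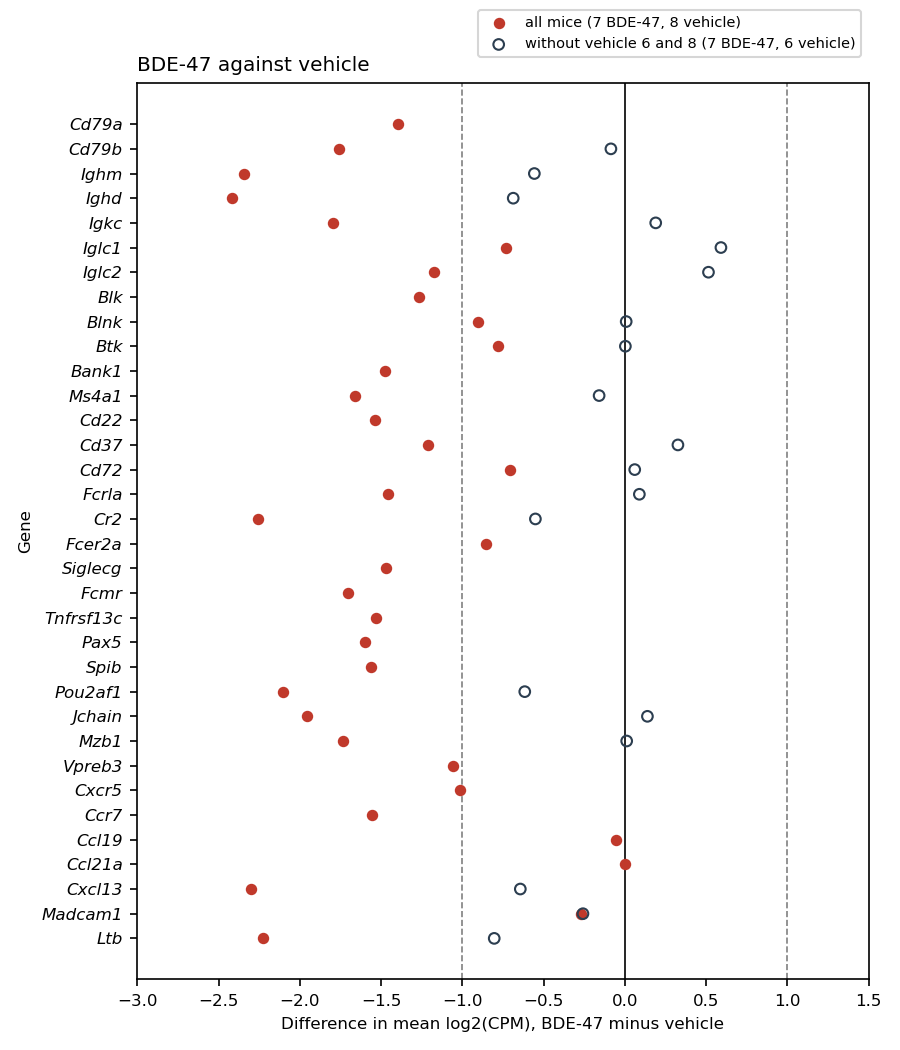
Difference in mean log2(CPM) between BDE-47 and vehicle for each of the 34 genes, with all mice (filled) and without vehicle replicates 6 and 8 (open, drawn for the 19 genes above 0 in a remaining mouse); dashed lines mark a 2-fold change. With all mice 26 genes lie left of the lower line, and without the 2 mice every drawn value lies between the lines.

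Other genes of B cell signalling were read from lists. Of 20 genes of the B cell receptor pathway, 10 were higher in both vehicle replicates 6 and 8 than in all other mice, among them Vav1, Pik3cd, Ptpn6 and Prkcb, against the 5.08% of all genes. With all mice, 7 of the 20 were lower with BDE-47 by over 2-fold and 0 were higher (10.5% and 9.97% of all genes), and without the 2 mice 2 were lower and 2 higher (10.5% and 10.4%). Dok3, an inhibitory adaptor also used by myeloid cells, was the only gene of the 20 with p under 0.05 (difference of -2.67, exact permutation p = 0.0169). In the same test 3.05% of all genes had p under 0.05. Without the 2 mice the difference of Dok3 was -1.87 (exact permutation p = 0.0373), and 2.74% of all genes had p under 0.05. Dok3 was above 0 in 1 of 7 BDE-47 mice.

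Among 17 further B cell genes, Ebf1 was above 0 in all mice and is also expressed by adipocyte precursors and stroma. It was 6.15 and 6.65 in vehicle replicates 6 and 8, within the 3.15 to 7.16 of the others, and differed by -1.35 with all mice (exact permutation p = 0.00746) and by -1.38 without the 2 mice (exact permutation p = 0.0251). H2-Ob, which encodes a chain of the class II peptide editor of B cells, differed by -2.53 (exact permutation p = 0.0443), and by -1.27 without the 2 mice (exact permutation p = 0.0699). Of 15 genes of lymphotoxin and B cell survival signalling, 5 were higher in both of the 2 mice than in all others (5.08% of all genes), including Cxcl12 and Tnfrsf13b, and 0 reached p under 0.05 with all mice. Relb, a subunit of the NF-κB factor downstream of the lymphotoxin receptor, was highest in the 2 mice (6.34 and 7.39). It was 1.18 higher with BDE-47 with all mice (exact permutation p = 0.356), and 2.65 higher without the 2 mice (exact permutation p = 0.0134). Bcl6, of the germinal centre list and also used by other cell types, was 1.68 higher with BDE-47 (exact permutation p = 0.0197), and 1.12 higher without the 2 mice (exact permutation p = 0.0542). Chst2, of the venule list, differed by -2.50 (exact permutation p = 0.0109), and by -2.02 without the 2 mice (exact permutation p = 0.0385). With all mice, p was under 0.05 for 2 of the 17 further B cell genes, 1 of the 8 germinal centre genes and 1 of the 7 venule genes. Over all genes the share was 3.05% with all mice and 2.74% without the 2 mice. These p-values are not adjusted, and 0 genes of any of these lists passed limma.

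Low levels of antibody transcripts were present in every mouse. In the 13 mice with Cd79a at 0, Igkc was 16.3 to 478 CPM, and the median of 29.4 CPM was 0.0755% of the level in vehicle replicate 8. Ighm was 1.28 to 98.5 CPM. Ighg2c and Ighg2b, which were also above 0 in all 13 mice, had medians of 0.0533% and 0.0549% of vehicle replicate 8. Muscle genes had a similar pattern around another library. Acta1, which was highest in BDE-47 replicate 6 at 34090 CPM, was above 0 in the other 14 mice at a median of 0.0903% of that level, and Ckm, Myh4 and Tnnt3 at 0.0353%, 0.0557% and 0.0706%. The source of these low levels was not tested.

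Vehicle replicate 1 and BDE-47 replicate 1 stood above this level for several antibody genes. Igkc was 7.44 and 8.90, Ighm 6.62 and 6.12, Jchain 5.21 and 5.34 and Mzb1 2.06 and 2.48 in these mice, while Cd79a was listed at 0 in both. Over the 13 mice, Ighm and Igkc had a Pearson's r of 0.666 (permutation p = 0.0136, adjusted over 3 relations 0.0136) and a Spearman's rho of 0.643 (permutation p = 0.0212, adjusted 0.0635). Within groups, r was 0.762 over 6 vehicle mice and 0.624 over 7 BDE-47 mice. Over all mice but vehicle replicate 1 and BDE-47 replicate 1, r was 0.295. Ighm with Jchain had r = 0.775 (permutation p = 0.00162, adjusted 0.00486) and rho = 0.388 (permutation p = 0.191, adjusted 0.255). Its r was 0.773 within vehicle and 0.804 within BDE-47, and 0.386 without the same mice. Igkc with Jchain had r = 0.747 (permutation p = 0.00566, adjusted 0.00849) and rho = 0.340 (permutation p = 0.255, adjusted 0.255). Its r was 0.617 within vehicle and 0.854 within BDE-47, and 0.141 without the same mice. The within-group values include vehicle replicate 1 and BDE-47 replicate 1, and both relations likewise rested on these mice.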

How the data were processed

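Total RNA of left 4th mammary tissue was made into QuantSeq 3′ FWD libraries, 1 per mouse, from 7 BDE-47 and 8 vehicle mice, grouped by the treatment given in the sample labels. The authors mapped the reads with STAR 2.5.3a (GRCm38, per the submitters' processing notes) and scaled the reads to CPM. The deposited values are log2(CPM), with 0 in place of anything under 1 CPM. The log2 step and the floor of 1 CPM were read from the values. Reads per mouse were recovered from the spacing of low CPM values, and every value was then a whole number of reads within 0.05. Count models were not used because the floor removes low counts.

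Where a gene name occurred more than once among the 52636 entries, the entry with the highest mean was kept, and 110 entries were left out. Differences are between means of the listed log2 values, BDE-47 minus vehicle. For genes listed at 0 in some mice, whether these differences are too small or too large is not known. Summed CPM counts values listed at 0 as 0 CPM. Genes were compared with the two-sided exact permutation test over the mice (6435 ways to choose 7 of 15, 1716 of 13, smallest possible p of 0.0001554 and 0.000583) and, for genes above 0 in at least 7 mice, with limma 3.58.1 in R 4.3.3, with its variance trend. Correlation p-values came from 100000 permutations. Python 3.11.15 with numpy 2.4.6, scipy 1.17.1, pandas 2.3.3 and matplotlib 3.10.9 was used, and each step was tested on simulated data.

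The 34 genes, their roles, the lists of other cell types and the use of Cd79a to tell the mice apart were chosen with earlier results of these data known. All 34 genes are accounted for by role. Outside them, genes of the lists are named, except some that are not reported here, as are the 12 genes with the highest mean among those above 0 in exactly the mice with Cd79a. Alternatives were a pseudocount of 1 or 0.1, size factors, no filter, each mouse left out, the replicate number as a block, and leaving out the mice with Cd79a.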

Additional observations from a re-analysis of the deposited data

Results flagged for a closer look

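A value is given here when 1 mouse lay farther from the rest of its group than Dixon's 95% limit. Of 72 groups of values looked at, 14 had such a mouse, and chance gives about 1 in 20. Since most of these genes were listed at 0 in most mice, 1 mouse above 0 is enough to pass the limit.

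Of the 14, 6 were in BDE-47 replicate 1, in which Iglc1 was 2.94 (next highest BDE-47 mouse 1.20), Iglc2 3.60 (next 0), Jchain 5.34 (next 1.63), Mzb1 2.48 (next 0) and Ltb 3.56 (next 0) on the log2(CPM) scale, and the summed level of the 34 genes was 632 CPM (next 128). Cd79a, Cd79b and Ms4a1 were listed at 0 in this mouse. In other BDE-47 mice, Btk was 1.79 in replicate 2, Ms4a1 1.24 and Cxcl13 0.52 in replicate 3, and Fcrla 0.62 in replicate 7, each with 0 in the other BDE-47 mice. Among vehicle mice, Cxcr5 was 5.73 in replicate 6 (next 2.37), Ccl19 was 0.43 in replicate 6 (next 0), Madcam1 was 1.55 in replicate 1 (next 0.59), and the summed level was 46473 CPM in replicate 8 (next 5835).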

How the results depend on the processing

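The direction and size of the BDE-47 comparison depended on vehicle replicates 6 and 8. The count of the 34 genes past 2-fold was 26 with all mice, 0 without both of these mice, 12 without vehicle replicate 6 and 7 without vehicle replicate 8, and over all mice left out in turn it ran from 7 to 27. Over all genes, in either direction, the first 4 of these counts were 3342 (of 16314), 3302 (of 15804), 3146 and 3197. Leaving out both mice reversed the difference of Igkc to 0.19, Iglc1 to 0.59, Iglc2 to 0.51, Blnk to 0.0080, Btk to 0.0030, Cd37 to 0.33, Cd72 to 0.061, Fcrla to 0.089, Jchain to 0.14 and Mzb1 to 0.011. No single mouse left out reversed a difference, with the median between -1.72 and -0.82 and the difference in genes above 0 per mouse between -8.29 and -4.14. The median was -1.51 with log2(CPM + 1), -2.30 with log2(CPM + 0.1) and -1.49 with size factors. The count past 2-fold over all genes moved from 3342 to 6613 with log2(CPM + 0.1), and was 3146 to 3783 as single mice were left out. The number of genes passing the exact test among the 34 and the number passing limma were 0 under every setting.

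Whether replicate numbers pair the mice was not settled. The correlation of same-numbered mice was -0.018 to 0.053, and 0 of 7 pairs passed 0.1. However, 4 of 7 BDE-47 mice matched their own number best among the vehicle mice. With the replicate number as a block, which leaves out vehicle replicate 8, 7 of the 34 genes were past 2-fold, the median difference was -0.82, and Cd79a differed by -0.83. Over all genes, 3197 were past 2-fold in either direction when vehicle replicate 8 was left out without the block. Genes listed at 0 limit the precision, with 73.9% of the 510 values of the 34 genes at 0.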

Other observations

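Leaving out vehicle replicates 6 and 8 also moved genes of fat, in comparisons chosen after seeing the data. With all 15 mice, 7 of 8 adipocyte genes had a higher mean with BDE-47 and 0 reached p under 0.05 in the exact permutation test, with a median difference of 0.37. Over all genes the share under 0.05 was 3.05% and the median difference -0.015. Without the 2 mice, all 8 had a lower mean with BDE-47 (median of -0.89, against 0.0048 over all genes), and 4 reached p under 0.05, against 2.74% of all genes. These were Fabp4, a fatty acid carrier (-1.08, exact permutation p = 0.0192), Cfd, which encodes adipsin (-1.01, exact permutation p = 0.0175), Cidec, a lipid droplet protein (-0.91, exact permutation p = 0.0344), and Lpl, which encodes lipoprotein lipase (-0.69, exact permutation p = 0.0367). The p-values are not adjusted, and 0 of the adipocyte genes passed limma. Without BDE-47 replicate 6 as well, all 8 remained lower with a median of -0.71, and 2 reached p under 0.05, Fabp4 (-0.82, exact permutation p = 0.0325) and Cfd (-0.76, exact permutation p = 0.0238). In that setting 2.75% of all genes had p under 0.05, and their median difference over all genes was 0.018.

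Genes of cell division also set vehicle replicate 6 apart. The 5 genes summed to 676 CPM in vehicle replicate 6 and 102 CPM in vehicle replicate 8, against 0 to 102 CPM in the other mice. Top2a was 7.90 and 6.08 in the 2 mice, and Mki67 was 5.85 in vehicle replicate 6 and listed at 0 in vehicle replicate 8. With all mice, Top2a was 0.54 higher with BDE-47 (exact permutation p = 0.701). Without the 2 mice, which had the highest Top2a values, it was 2.18 higher (exact permutation p = 0.0274). Top2a was then the only 1 of the 5 genes with an unadjusted p under 0.05, against 2.74% of all genes. Without the 2 mice, the differences of the other division genes were -1.30 (Birc5), -0.030 (Mki67), 0.021 (Ccnb1) and 0.24 (Cdk1).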
